A study of Mus musculus with 10 samples.

Results

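Genes that fasten squamous epithelium to its basement membrane were followed in whole esophagus of mice with experimental eosinophilic esophagitis. The 9 genes were chosen by name from the 54446 genes of the table: the integrin chains Itga6, Itgb4 and Itga3, the plakins Dst and Plec, the transmembrane collagen Col17a1, the laminin chains Lama3 and Lamb3, and the anchoring fibril collagen Col7a1. Polyadenylated RNA was counted at its 3′ ends (CEL-Seq) in 10 libraries from wild-type (WT) C57BL/6 mice, 5 of them from the vehicle group (A1 to A5) and 5 from the OXA group (C1, D1, D2, D3 and D4), a skin-sensitizing oxazolone used to induce the disease. The age and sex of the mice and the dose, route and schedule of OXA are not stated in the labels used here. The series title concerns IL-13 and the type II IL-4 receptor of epithelial cells, and the comparison asked how transcripts differed between OXA and vehicle mice.

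A hemidesmosome is the plaque with which a basal keratinocyte holds on to the matrix beneath it. The integrin of the α6 and β4 chains spans the membrane and binds laminin-332 outside. Plectin and the epithelial form of dystonin (also called BPAG1) tie the integrin and type XVII collagen to keratin filaments inside. Type VII collagen forms the anchoring fibrils that hook the basement membrane to the connective tissue, and human mutations in these genes cause blistering diseases. Whole esophagus also holds striated and smooth muscle, nerve and vessels, which use some of the same genes. In bulk tissue, fewer cells of a type and less RNA per cell cannot be told apart.

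Values are normalized counts, that is, gene counts divided by a size factor for each library, and group values are means ± SD with n = 5. Depth ranged from 5094159 to 12108822 reads in vehicle and from 3675479 to 8364227 in OXA libraries. The members had between 742 (Lama3) and 14028 (Dst) reads over the 10 libraries, with a low of 13 reads for Lama3 in D2. Log2 fold changes are OXA minus vehicle of normalized counts + 1, with standard errors from limma, and a gene was called at a Benjamini-Hochberg adjusted p under 0.05 over the 14712 genes tested. All 9 members passed the filter on low values. No label ties a library to a separate animal, so a p-value here reflects only library-to-library spread, which may be technical. The letter A marks all vehicle libraries and no OXA library, so any difference between A and the letters C and D cannot be told apart from OXA.

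The promoters of Col17a1 and Dst are shown because these genes were called lower and were among the members whose promoters were examined. The examined set held 8 promoters of 5 of the 9 members, from the RefSeq promoter table (GRCm38.p6). Each had 300 bases, 250 before and 50 after the start. Lama3, also called lower, was not in that set, so nothing is said here about its promoter. Dst has entries at 2 starts, both inside the table's interval for the gene. Each sequence is read along the gene, 5′ to 3′. Capitals mark a match on either strand to the STAT-type palindrome (TTC and GAA with 4 or 3 bases of any kind between them), to the AP-1 type site TGANTCA or to a p53 family half-site, the motif class that p63 of basal keratinocytes binds.
Col17a1, chr19:47691993-47692292, minus strand: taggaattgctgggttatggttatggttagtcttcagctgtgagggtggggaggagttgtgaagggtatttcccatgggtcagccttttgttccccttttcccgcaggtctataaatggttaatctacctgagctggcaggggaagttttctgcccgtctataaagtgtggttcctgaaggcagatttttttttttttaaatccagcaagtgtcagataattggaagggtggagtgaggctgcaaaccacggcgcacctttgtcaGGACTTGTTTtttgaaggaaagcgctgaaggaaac
Dst, first entry, chr1:34011345-34011644, plus strand: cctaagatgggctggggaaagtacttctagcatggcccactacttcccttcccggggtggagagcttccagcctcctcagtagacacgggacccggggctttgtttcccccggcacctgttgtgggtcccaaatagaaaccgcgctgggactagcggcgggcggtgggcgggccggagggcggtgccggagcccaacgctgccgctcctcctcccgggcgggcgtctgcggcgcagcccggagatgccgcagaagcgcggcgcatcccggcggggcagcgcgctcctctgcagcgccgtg
Dst, second entry, chr1:34160010-34160309, plus strand: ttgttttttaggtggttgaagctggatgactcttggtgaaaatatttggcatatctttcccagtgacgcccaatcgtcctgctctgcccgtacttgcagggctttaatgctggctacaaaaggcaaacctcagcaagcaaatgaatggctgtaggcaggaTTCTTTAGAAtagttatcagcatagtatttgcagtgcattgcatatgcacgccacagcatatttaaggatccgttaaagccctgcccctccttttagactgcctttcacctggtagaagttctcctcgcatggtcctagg
The Col17a1 promoter held 1 half-site match, beginning 15 bases after the start, and 2 matches to TATAAA. The second Dst promoter held 1 match to the palindrome with 4 bases between, 90 bases before the start, and the first held none of the capitalized motifs but 4 matches to GGGCGG, in a sequence of 70.3% G and C against 46.0% in the second. Over all 32851 promoters of the table, 8.36% held the half-site, 6.95% the palindrome with 4 bases between and 8.30% that with 3, 7.81% TGANTCA, 13.6% TATAAA and 35.7% GGGCGG. Among the examined members that were not called, Itga3 held the palindrome with 4 bases between, 93 bases before the start of 1 entry. Its other entry held TGANTCA, 12 bases after the start. Lamb3 and Col7a1, also not called, held none of the capitalized motifs. A match describes letters, not binding.

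Of the 9 members, 3 fell, 1 rose and 5 did not pass, where 14.2% of all tested genes fell, 15.7% rose and 29.9% changed in either direction. Col17a1, Lama3 and Dst were the members that fell, and Itga6 the member that rose. The median log2 fold change was -0.42 over the members and -0.01 over all tested genes. Groups did not overlap for these same 4 members, and 22.4% of all tested genes had no overlap (all OXA libraries below all vehicle libraries in 10.4%, above them in 12.0%). Scaling to library totals in place of the authors' size factors shifted the median of all genes by 0.12 on the log2 scale, and 65.3% of calls were then higher, against 52.5% here. Among the integrin, plakin and laminin chains alike, called and uncalled members stood side by side, as the plot of values by library shows.

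**Figure D1:**
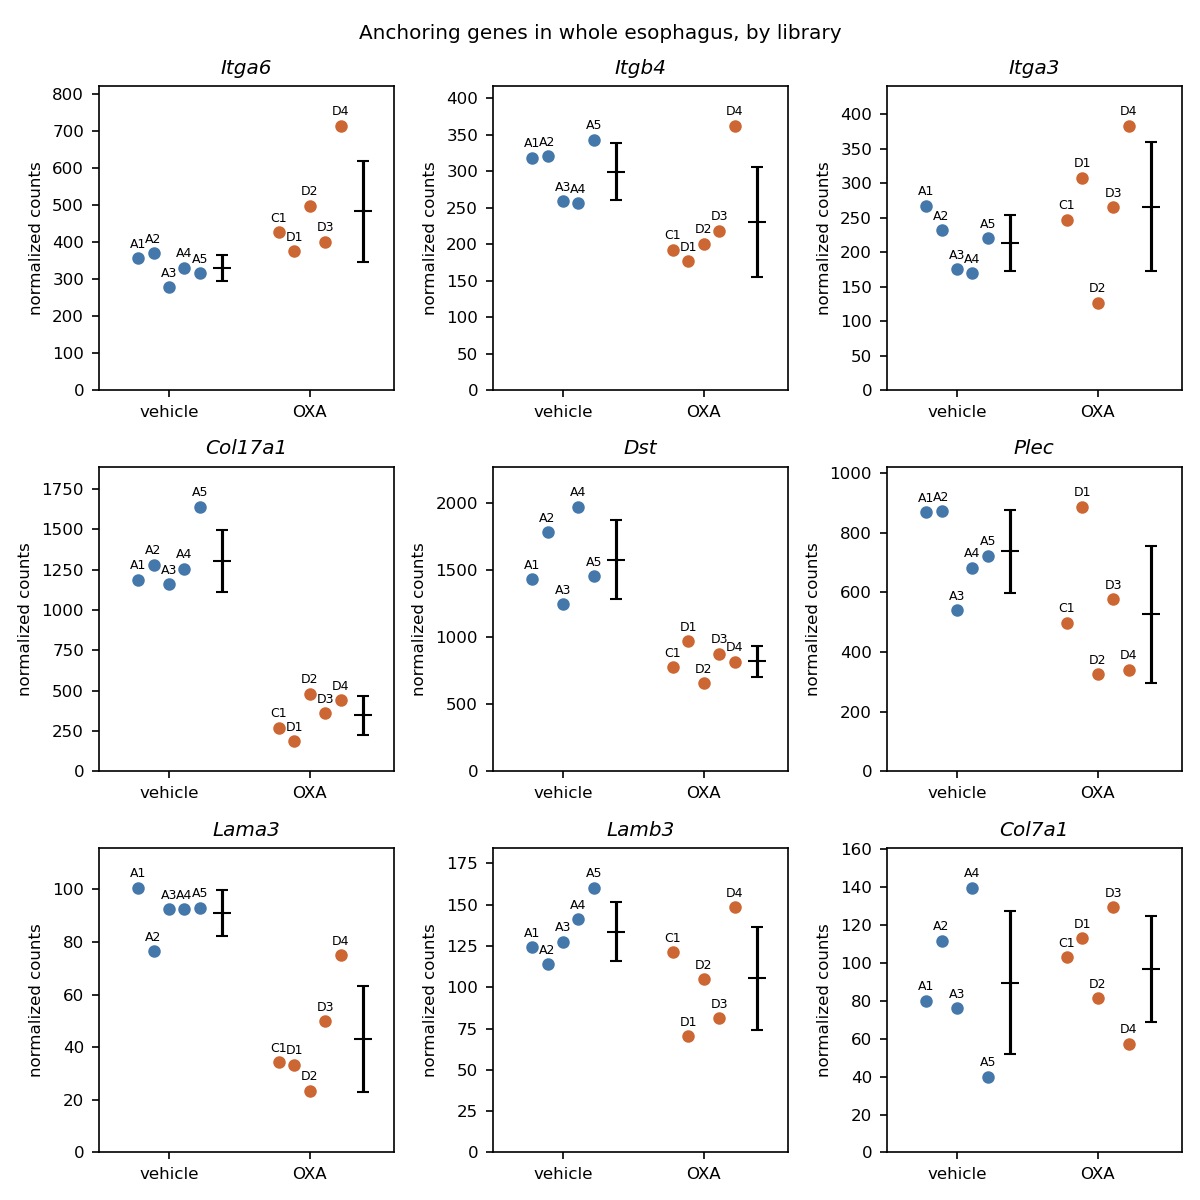
Normalized counts (y axis, linear from 0) of the 9 anchoring genes in each vehicle (blue) and OXA (orange) library, with the group mean ± SD in black (n = 5). All OXA libraries lie below all vehicle libraries for Col17a1, Dst and Lama3 and above them for Itga6, and D4 is the highest OXA library for the 3 integrin and the 2 laminin chains.

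Itga6 (ENSMUSG00000027111.15, chromosome 2, 71745616 to 71858716) encodes the α6 chain, which pairs with β4 in hemidesmosomes and with β1 elsewhere, including endothelium. It stood at 356.44, 369.73, 278.67, 330.82 and 316.22 normalized counts in A1 to A5 and at 426.70, 375.30, 497.87, 401.28 and 713.57 in C1 and D1 to D4. Every OXA library lay above every vehicle library, by a small margin for D1 and by far for D4. The means were 330 ± 35.7 and 483 ± 137, a log2 fold change of 0.51 ± 0.17 (adjusted p = 0.0363). The call was lost without A1, A3, A4, A5, C1, D2 or D4, each left out singly (adjusted p = 0.0506 to 0.0900), and without the 3 shallowest libraries A5, D2 and D4, where the change was 0.27 (adjusted p = 0.165) and 14.3% of all genes rose. It was also lost without a filter on low values, where the change was 0.51 and 7.87% of all genes rose, and with the skeletal (0.40 ± 0.15) or smooth (0.68 ± 0.27) muscle score as covariate; over all 22 alternatives the adjusted p ran from 0.0133 to 0.165. Of 7 endothelial markers 1 rose and 6 did not pass, and over the 22 alternatives the count that rose ranged from 0 to 4. The summed level of these markers was 258 to 541 in vehicle and 348 to 780 in OXA libraries. Its part in the Itga6 result was not tested.

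Itgb4 (ENSMUSG00000020758.15, chromosome 11, 115974709 to 116008712) encodes β4, the chain whose long cytoplasmic tail recruits plectin and which pairs only with α6. It stood at 318.43, 320.23, 259.18, 256.04 and 343.41 in A1 to A5 and at 192.36, 176.99, 200.96, 218.36 and 362.37 in C1 and D1 to D4. In OXA, 4 libraries lay below all vehicle libraries, and D4 lay above all of them. The means were 299 ± 39.5 and 230 ± 75.4, and the change of -0.42 ± 0.19 did not pass (adjusted p = 0.109; 95% interval -0.82 to -0.02). Of the libraries left out singly, only D4 changed the outcome: without it Itgb4 stood at -0.59 with an adjusted p of 0.00632. It also passed without the 3 shallowest libraries (-0.55, adjusted p = 0.0158) and with the skeletal muscle score as covariate (-0.53, adjusted p = 0.0302), and stood at -0.16 with the smooth muscle score (adjusted p = 0.751). The last bases of the table's interval overlap Galk1 on the other strand, which averaged 19.3 and 27.9, so reads at that end may be shared if strand was not used in counting.

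Itga3 (ENSMUSG00000001507.16, chromosome 11, 95044174 to 95076801) encodes α3, which with β1 forms the other laminin-332 receptor of basal cells, placed outside hemidesmosomes. It read 267.07, 231.74, 175.39, 169.83 and 220.35 in A1 to A5 and 247.32, 307.78, 126.73, 265.28 and 383.12 in C1 and D1 to D4. The groups overlapped widely, with D2 below and D1 and D4 above all vehicle libraries. The change of 0.25 ± 0.25 did not pass (adjusted p = 0.474; 95% interval -0.28 to 0.79). Without D2 it was 0.50 with an adjusted p of 0.0497, the lowest of its alternatives; without D4 it was 0.10 (adjusted p = 0.792), and with the smooth muscle score as covariate 0.89 ± 0.33 (adjusted p = 0.0845).

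Col17a1 (ENSMUSG00000025064.14, chromosome 19, 47646044 to 47692094) encodes type XVII collagen, the transmembrane collagen that binds α6, β4, plectin and dystonin. It stood at 1186.42, 1280.18, 1160.48, 1255.26 and 1639.78 in A1 to A5 and at 270.22, 186.94, 481.58, 359.14 and 440.59 in C1 and D1 to D4. The vehicle libraries sat close together apart from A5, and the highest OXA library, D2, was still far below the lowest vehicle library. The means were 1304 ± 194 and 348 ± 121, so vehicle was 3.75-fold higher, and the log2 fold change was -1.97 ± 0.22 (adjusted p = 2.75e-05). Of the 14712 genes tested, 288 (1.96%) had a lower log2 fold change. It fell in each of the 22 alternatives, from -2.21 to -1.77, including those that left out 1 library at a time.

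Dst (ENSMUSG00000026131.18, chromosome 1, 33908225 to 34308961) encodes dystonin, whose epithelial form sits in the inner hemidesmosome plaque, whereas other forms serve neurons and muscle. It stood at 1429.86, 1778.91, 1244.28, 1970.92 and 1455.20 in A1 to A5 and at 777.83, 970.96, 657.19, 877.26 and 815.73 in C1 and D1 to D4. All OXA libraries lay below all vehicle libraries, with means of 1576 ± 293 and 820 ± 117. The log2 fold change was -0.93 ± 0.15 (adjusted p = 5.05e-04). GENCODE M21 lists 14 coding transcripts of Dst, with 9 separate 3′ ends (more than 500 bases apart), and the table gives 1 value for all of them, so the epithelial, neuronal and muscle forms are summed.

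Plec (ENSMUSG00000022565.15, chromosome 15, 76170674 to 76232574) encodes plectin, the linker between β4 and keratin filaments that also anchors desmin in muscle. It read 867.98, 871.45, 539.80, 681.90 and 722.59 in A1 to A5 and 498.45, 886.37, 325.88, 576.54 and 340.02 in C1 and D1 to D4. The groups overlapped, since D1 was the highest of the 10 libraries and D2 the lowest. The means were 737 ± 139 and 525 ± 228, and the change of -0.57 ± 0.25 did not pass (adjusted p = 0.0976; 95% interval -1.09 to -0.04). Without D1 it was -0.78 with an adjusted p of 0.00969, and without the 3 shallowest libraries it was -0.20 (adjusted p = 0.546), within a range of 0.00969 to 0.957 over the alternatives. Some Parp10 reads (means of 40.2 and 42.1) could be shared with Plec, whose 5′ end overlaps that gene.

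Muscle markers are given here because muscle also uses both plakins. The summed level of 12 skeletal muscle markers was 145768 to 208214 in vehicle libraries and 70337 to 291607 in OXA libraries, and 2 of 12 fell. Over the 22 alternatives the count of these markers that fell ranged from 0 to 6. D1, highest of the OXA libraries in Dst and Plec, had the highest sum, and D4 the lowest. With the skeletal muscle score as covariate, Dst stood at -0.84 ± 0.13 (adjusted p = 2.89e-04) and Plec at -0.30 ± 0.14 (adjusted p = 0.128). Of 7 smooth muscle markers limma called 3 lower, edgeR 5 and DESeq2 6, and limma 6 without A3, with summed levels of 10344 to 24731 in vehicle and 7649 to 13204 in OXA. With a smooth muscle score as covariate, an alternative chosen after seeing the data, Dst was at -0.64 ± 0.22 (adjusted p = 0.0694), Plec at -0.04 ± 0.35 (adjusted p = 0.957), Lama3 at -0.79 ± 0.41 (adjusted p = 0.211) and Col17a1 at -2.02 ± 0.36 (adjusted p = 0.00334). Calls over all genes fell to 1226 higher and 1172 lower in that fit, from 2309 and 2085. All 7 smooth muscle markers had log2 fold changes below 0, so the score goes partly with treatment. That fit therefore cannot fully tell smooth muscle content apart from OXA. Of the members, 5 fell and 0 rose with the skeletal muscle score, where 16.4% of all genes fell and 16.5% rose, and 1 fell and 0 rose with the smooth muscle score, where 7.97% fell and 8.33% rose. Of 7 Schwann and nerve markers, with sums of 437 to 1254 and 195 to 741, limma called 0 (0 at an unadjusted p under 0.05), edgeR 0 (0 unadjusted) and DESeq2 0 (1 unadjusted).

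Laminin-332 holds the α3 chain, encoded by Lama3, and the β3 chain, encoded by Lamb3. Lama3 (ENSMUSG00000024421.16, chromosome 18, 12333819 to 12583313) stood at 100.67, 76.50, 92.57, 92.44 and 93.01 in A1 to A5 and at 34.35, 33.41, 23.54, 49.80 and 75.03 in C1 and D1 to D4. All OXA libraries lay below all vehicle libraries, although D4 came close to A2, the lowest of them. The means were 91.0 ± 8.84 and 43.2 ± 20.1, with vehicle 2.11-fold higher and a log2 fold change of -1.16 ± 0.27 (adjusted p = 0.00479). The call held in 21 of 22 alternatives, all but the smooth muscle score as covariate.

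Lamb3 (ENSMUSG00000026639.18, chromosome 1, 193207699 to 193344178) read 124.29, 113.99, 127.64, 141.26 and 160.26 in A1 to A5 and 121.37, 70.37, 105.01, 81.41 and 148.46 in C1 and D1 to D4. In OXA, 3 libraries lay below all vehicle libraries and C1 and D4 within their range. The change of -0.38 ± 0.20 did not pass (adjusted p = 0.177; 95% interval -0.82 to 0.06), but with the skeletal muscle score as covariate it was -0.58 (adjusted p = 0.00853; 0.00853 to 0.426 over the alternatives) and without D1 -0.25 (adjusted p = 0.354). The wide interval of Lamb3 also covers G0s2 and Hsd11b1 on the other strand, which averaged 67.4 and 44.8 in vehicle. Whether their reads entered the Lamb3 value would depend on exon overlap, which was not examined, and on how the counting used strand.

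Col7a1 (ENSMUSG00000025650.13, chromosome 9, 108953586 to 108985175) encodes type VII collagen, made by basal keratinocytes and fibroblasts. It read 80.12, 111.74, 76.00, 139.70 and 40.06 in A1 to A5 and 103.05, 113.02, 81.47, 129.29 and 57.47 in C1 and D1 to D4. All OXA libraries fell within the vehicle range, and A5 and D4 were the lowest of their groups. The change of 0.17 ± 0.31 did not pass (adjusted p = 0.704; 95% interval -0.49 to 0.84), and its sign turned without A5 (-0.08). Of 6 fibroblast markers 2 rose and 4 did not pass, with summed levels of 22476 to 32625 in vehicle and 26118 to 46522 in OXA; their part in the Col7a1 values was not tested.

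Ratios within a library compare 2 members without regard to the library's scaling. In all, 8 ratios were compared by exact permutation (two-sided; 0.00794 is the smallest p that 5 against 5 allows), with adjustment over the 8, of which 7 are given. The log2 ratio of Itga6 to Itgb4, the chains of one receptor, was -0.12 to 0.37 in vehicle and 0.87 to 1.30 in OXA libraries, D4 included. The groups did not overlap, and the ratio was 1.91-fold higher in OXA (exact p = 0.00794, adjusted p = 0.0212). D4, the highest OXA library in both chains, lay within the range of the other OXA libraries in their ratio.

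The ratio of Col17a1 to Itgb4 lay between 1.89 and 2.29 in vehicle and between 0.08 and 1.26 in OXA, a log2 difference of -1.55 (exact p = 0.00794, adjusted p = 0.0212). Against Krt5, a keratin of basal cells, Col17a1 lay between -3.64 and -3.38 in vehicle and between -6.00 and -4.81 in OXA, a log2 difference of -2.09 (exact p = 0.00794, adjusted p = 0.0212). Neither Itgb4 nor Krt5 was itself called. The basal keratin Krt15 fell about as far as Col17a1 (-2.03 ± 0.28 against -1.97 ± 0.22), and the ratio of these genes was not tested. The 3 ratios Itga6 to Itgb4, Col17a1 to Itgb4 and Col17a1 to Krt5 passed in each of 12 alternatives.

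Among the laminin chains, the log2 ratio of Lama3 to Lamb3 averaged -0.54 ± 0.18 in vehicle and -1.33 ± 0.60 in OXA (exact p = 0.0159, adjusted p = 0.0317). The groups overlapped through D3 (-0.70) and A5 (-0.78), and the call was lost without A1, A2, A3 or A4 (adjusted p up to 0.0952). Neither Itga3 to Itga6 (log2 difference -0.26, adjusted p = 0.524), Dst to Plec (-0.37, adjusted p = 0.212) nor Col7a1 to Lamb3 (0.55, adjusted p = 0.363) passed by the exact test.

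**Figure D2:**
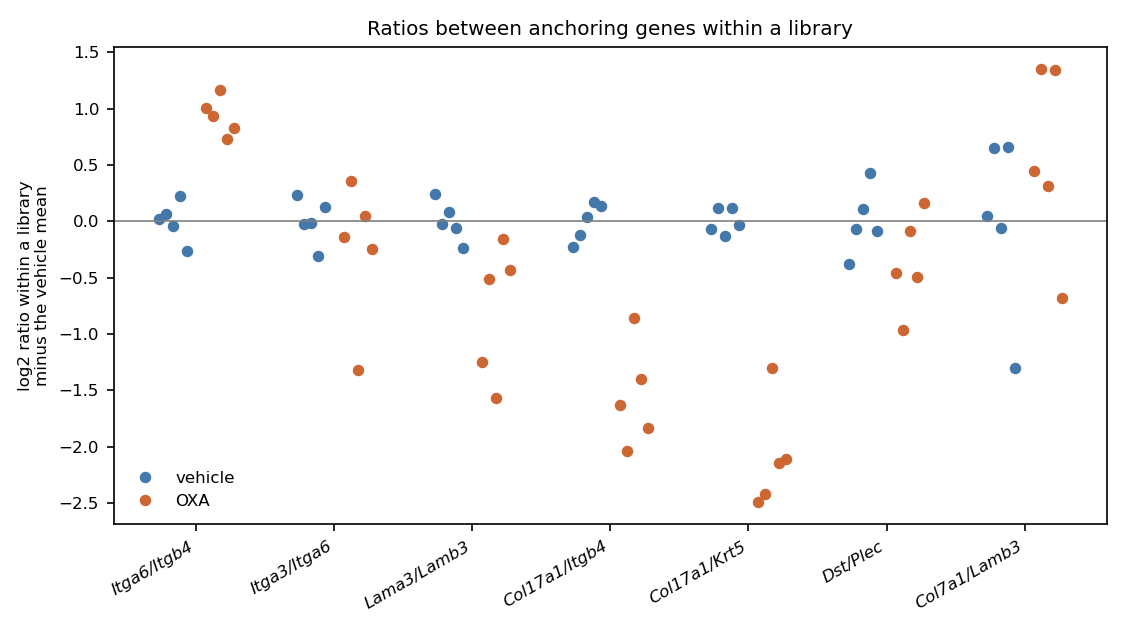
Log2 ratio of 2 genes within each library, minus the vehicle mean of that ratio (y axis), for 7 ratios and the vehicle (blue) and OXA (orange) libraries. For Itga6/Itgb4 the OXA points all lie above the vehicle points, and for Col17a1/Itgb4 and Col17a1/Krt5 they all lie below.

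Of 11 partner genes of the hemidesmosome 2 rose, 1 fell and 8 did not pass, a share near that over all tested genes (15.7% rose and 14.2% fell), with a median log2 fold change of -0.30. The keratins that load onto hemidesmosomes went apart: Krt14 rose from 2357 ± 462 to 11260 ± 5139, Krt15 fell from 12538 ± 1754 to 3295 ± 1277 (-2.03 ± 0.28, adjusted p = 1.23e-04), and Krt5 stood at 14814 ± 2430 and 16346 ± 3990 (adjusted p = 0.722). Itgb1, the β1 chain that pairs with α3, rose from 834 ± 67.4 to 1284 ± 225 (0.61 ± 0.14, adjusted p = 0.00458). The tetraspanin Cd151, which binds laminin receptors, stood at 985 ± 74.7 and 802 ± 96.9 (-0.30 ± 0.12, adjusted p = 0.0795). Kindlin-1 (Fermt1), an integrin activator, had a log2 fold change of -0.49 ± 0.25, the matrix protein Tgfbi -0.44 ± 0.17, Klhl24 -0.44 ± 0.25, Erbin, which binds β4, -0.31 ± 0.19, Exph5 -0.07 ± 0.35 and Bmp1, a protease that trims procollagen VII, 0.38 ± 0.21; none of these passed.

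**Figure D3:**
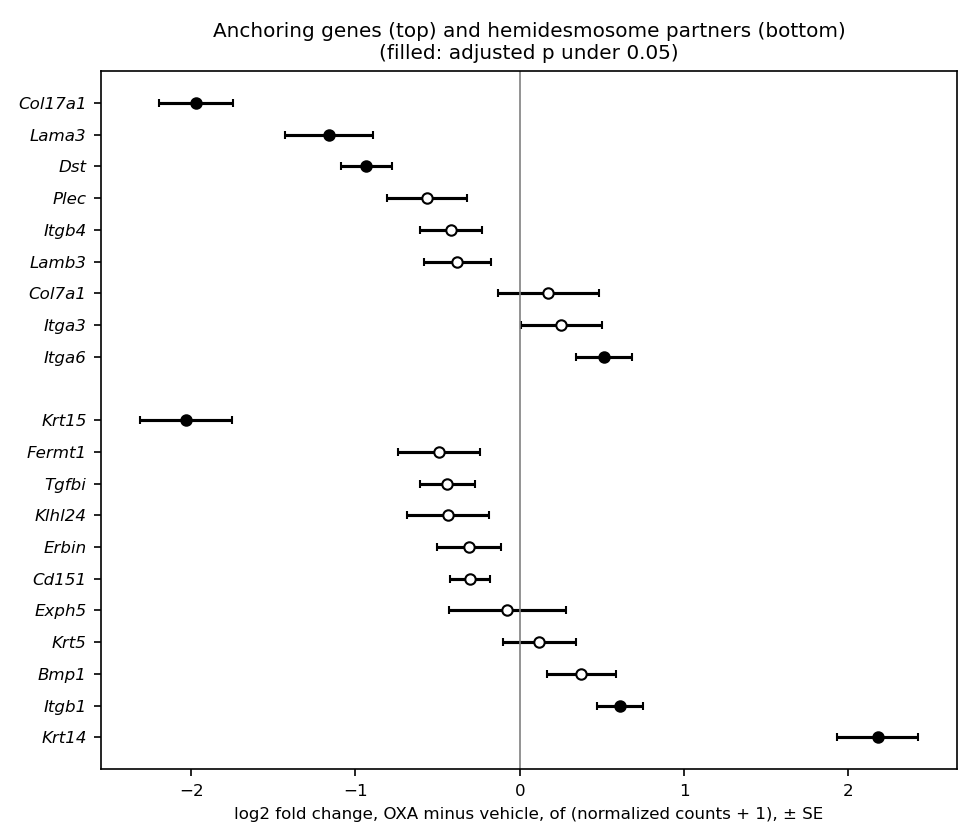
Log2 fold change ± SE (x axis, OXA minus vehicle, from limma) of the 9 anchoring genes and 11 hemidesmosome partners, filled where the adjusted p is under 0.05. Col17a1 and Krt15 lie near -2, Krt14 near 2 and the other partners within 1 of 0.

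Of the other 5 plakins, periplakin (Ppl, -1.86 ± 0.26) and envoplakin (Evpl, -0.66 ± 0.19), which serve the cornified envelope, fell, the spectraplakin Macf1 rose (0.38 ± 0.13), and 2, desmoplakin (Dsp) among them, did not pass. Among 21 tested chains of the other integrins 8 rose and 1 fell, with 18 of 21 log2 fold changes above 0 and a median of 0.40. Those that rose were led by leukocyte chains: Itgal (3.50 ± 0.38), Itgb2 (1.85 ± 0.22), Itgax (1.80 ± 0.23) and Itga4 (2.17 ± 0.31). Beside them, 5 of 7 leukocyte markers rose, their summed level going from 356 to 501 in vehicle libraries to 941 to 1419 in OXA libraries. The integrin chain Itgam, which rose, is counted in both lists.

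Basement membrane genes outside laminin-332 rose in 2 and fell in 3 of 22 tested, with a median of -0.13. Col4a6, an epithelial and smooth muscle type IV collagen chain, fell from 25.6 ± 7.60 to 5.93 ± 3.85 (-2.08 ± 0.43, adjusted p = 0.00247), as did Agrn (-0.91 ± 0.19) and Fbln1 (-0.86 ± 0.14), whereas Col4a1 (0.81 ± 0.22) and Lamc1 (0.54 ± 0.16, chosen after its values were seen) rose. Col4a6 was thinly counted, with as few as 1 read in a library and 186 reads over all 10. Focal adhesion genes, which encode actin-linked anchors, rose in 2 and fell in 5 of 14. Actn1 rose (0.99 ± 0.21), and Tns1 (-1.07 ± 0.29), Bcar1 (-0.78 ± 0.19) and Src (-0.84 ± 0.21) were among those that fell; with the smooth muscle score as covariate 0 fell. Basal layer markers rose in 5 and fell in 2 of 10. The count that fell was 1 in 14 of the 22 alternatives. P-cadherin (Cdh3, 1.76 ± 0.22) and Cd44 (1.23 ± 0.27) rose, as did Krt14 and Itgb1, which are also counted among the partners. The markers that fell were Krt15 (-2.03 ± 0.28), a partner too, and Ngfr (-1.24 ± 0.44, adjusted p = 0.0479), chosen after its values were seen, while the basal factor Trp63, chosen after its values were seen, stood at 422 ± 77.9 and 332 ± 86.0 (adjusted p = 0.147). No defining basal marker was at 0 in either group.

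**Figure D4:**
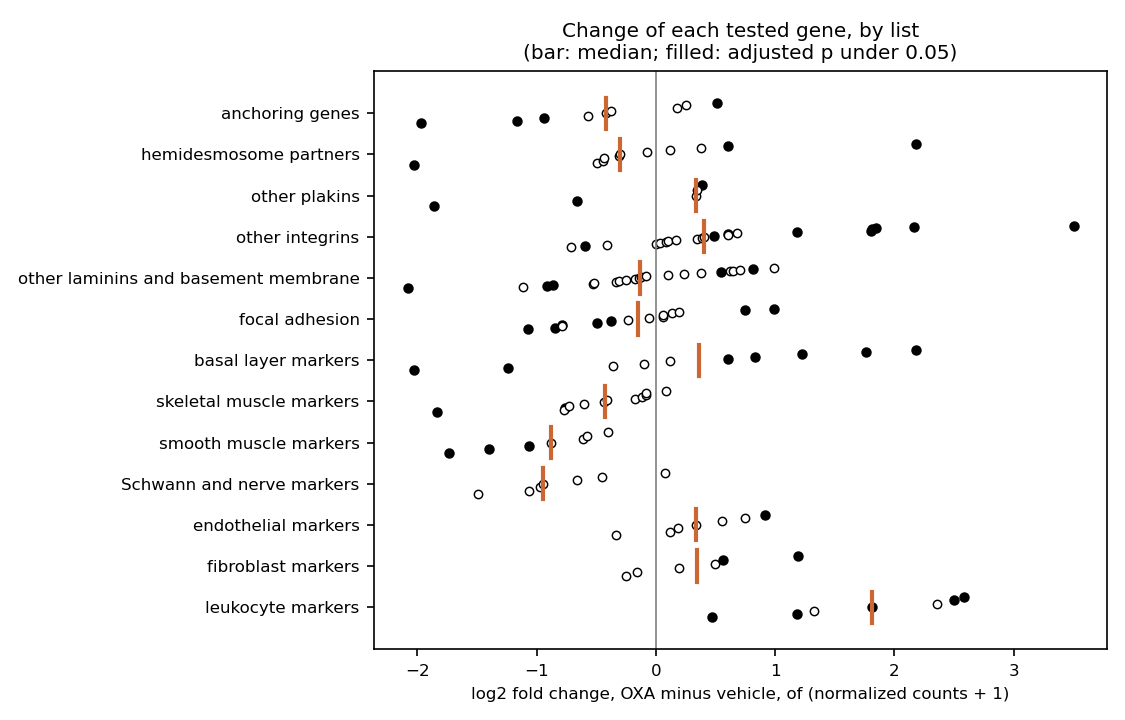
Log2 fold change (x axis, OXA minus vehicle) of every tested gene in 13 lists, 1 point a gene, filled where the adjusted p is under 0.05, with the list median as a bar. The anchoring genes spread from -1.97 to 0.51 around a median of -0.42, and leukocyte markers all lie above 0.

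The profiles nearest to Col17a1, by root mean square difference of log2 profiles centred on the vehicle mean over the 10 libraries, were those of Wnt7b (0.20), Phyhip (0.23), Cyp2s1 (0.24), Cd109 (0.25) and Krt15 (0.25). Wnt7b, a Wnt ligand, went from 474 ± 97.6 to 126 ± 42.4, and Cd109, a membrane protein of basal cells, from 735 ± 92.6 to 184 ± 47.2. The profiles nearest to Itga6 were those of Snx18 (0.11), Fryl (0.13), Rnf111 (0.13), Creb1 (0.14) and Zbtb2 (0.14), with log2 fold changes of 0.42 to 0.61. Both orders describe these 10 libraries and carry no test.

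Among the OXA libraries, D4 was highest in 5 of 9 members (Itga6, Itgb4, Itga3, Lama3 and Lamb3), and it had the highest level of Krt14 (20157.11) and of Krt5 (21537.96) of all 10 libraries. D1 was highest in Dst and Plec and lowest in Itga6, Itgb4, Col17a1 and Lamb3. D2, the shallowest library, was lowest in Itga3, Dst, Plec and Lama3 and highest in Col17a1. C1 was neither highest nor lowest in any member. In vehicle, A3 was lowest in Itga6, Col17a1, Dst and Plec, and A5 highest in Itgb4, Col17a1 and Lamb3.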

How the data were processed

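RNA of whole esophagus in 10 mouse libraries was extracted with TRIZOL and read by CEL-Seq (HiSeq 2500), as the labels' protocols state. The authors deposited a signal per gene and library, gene counts divided by 1 size factor per library, as worked out from the values: 100% were whole multiples of a step constant in the library, within 0.006. Per the submitters' processing notes, which state neither roles nor sequence, the build was GRCm38 and the tools included HTSeq 0.11.2, TopHat2 2.1.0 with Bowtie2 2.2.6, DESeq2 1.18.1, cutadapt 1.10, FastQC 0.11.5 and Trim Galore. How strand, multi-mapping reads and molecular identifiers were handled is not given in those sources. The deposited gene intervals run 300 bases past the GENCODE M21 3′ end in all 9 members and in 92.8% of coding genes with the same identifier, so reads just past a gene or from a neighbour may be counted. Reads without molecular identifiers are not independent molecules.

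Here limma 3.58.1 (lmFit, eBayes with trend, two-sided) was run on log2(value + 1) for the 14712 genes whose mean over all libraries reached 5, with Benjamini-Hochberg adjustment over all of them. On recovered reads, edgeR 4.0.16 and DESeq2 1.42.0 were run as alternatives, beside other pseudocounts, filters, scalings and covariates and the omission of each library. The scripts were tested on simulated data. Members and lists were chosen with earlier results of these data known. Named genes were the 9 members, 11 hemidesmosome partners, up to 4 genes of smallest p in other lists and the 5 profiles nearest to the members with the largest fall and rise; genes overlapping a member are named for their position. A further partner and 1 of the 8 ratios are not reported here; adjusted p-values of the ratios are over all 8.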

Additional observations from a re-analysis of the deposited data

Results flagged for a closer look

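Among 34 groups of 5 libraries checked, those of the 9 members and the 8 ratios, 2 had a library far from the others by Dixon's test, and chance gives about 1 in 20. In vehicle, Col17a1 stood at 1639.78 in A5 and between 1160.48 and 1280.18 in the other libraries. In OXA, Itgb4 stood at 362.37 in D4 and between 176.99 and 218.36 in the others.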

How the results depend on the processing

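The count of members lower in OXA was 3 and moved to 5 with the skeletal muscle score as covariate and to 1 with the smooth muscle score as covariate; in the other 20 alternatives it stayed within 1.5 times. The count of members higher was 1, and 0 without a filter on low values, with the skeletal muscle score, with the smooth muscle score and without the 3 shallowest libraries, and it ranged from 0 to 1 when 1 library was left out at a time. The log2 fold change of Col7a1 ranged from -0.0815 to 0.36 without 1 library, and the log2 ratio of Itga3 to Itga6 from -0.41 to 0.00562, both uncalled; the cause was not tested. Relative to the median of all genes under scaling to library totals, Col17a1 stood at -1.93, Lama3 at -1.04, Dst at -0.91 and Itga6 at 0.53. The count of focal adhesion genes lower ranged from 0 to 5, and the counts of other lists moved too, so they describe these settings only. With 13 to 178 reads a library, Lama3 was the least deeply counted member. No paired analysis was possible because the letters before the numbers differ between the groups and no label ties a vehicle mouse to an OXA mouse.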
